A study of Mus musculus with 6 samples.

Results

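The 10 genes described here encode pumps and carriers that move drugs, hormones and organic anions across the blood-brain barrier. They were taken by symbol (Abcb1a, Abcg2, Abcc1, Abcc4, Abcc5, Slco1a4, Slco1c1, Slco2a1, Slco2b1 and Slc22a8) from deposited tables of 23329 gene symbols, and all 10 were found and passed the filter on low counts. RNA had been sequenced from endothelial cells isolated from adult mouse brain by magnetic sorting (MACS) and lysed without culture. There were 3 libraries from mice labelled GLUT1EC-/-, in which Slc2a1, the gene of the glucose carrier GLUT1, is knocked out in endothelial cells, and 3 from WT littermates. All 6 mice were C57BL/6 and 8 weeks old, and each had its own animal number. The Cre line or promoter that drives the deletion, and its timing, are not given in the sources used here. The study asked which transcripts differ between the genotypes. For the transporters the question is whether their mRNA differed in cells labelled as lacking GLUT1.

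Efflux pumps of the ABC family use ATP to drive lipophilic drugs and conjugated anions out of the endothelial cell, and at the luminal membrane they return such compounds to the blood. Organic anion transporting polypeptides (the Slco genes) and the organic anion transporter Slc22a8 carry hormones, prostaglandins, bile acids and conjugates across the cell membrane. In brain capillaries both groups are part of what defines the barrier phenotype.

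Slc2a1 itself did not separate the groups. It was at 3735, 5414 and 3893 CPM in the libraries labelled GLUT1EC-/- 1 to 3, against 3984, 4479 and 4172 CPM in WT 1 to 3, where CPM is the count scaled to library size. The fitted difference was 0.046 on the log2 scale (SE 0.18), with an edgeR adjusted p of 0.921, so every direction below is between libraries as labelled. A count over the whole gene cannot show a deletion of a few exons, and the deleted exons are not given in the sources used here. Total counts ran from 35323299 to 37868681 in the libraries labelled GLUT1EC-/- and from 31874662 to 39424384 in WT. GLUT1EC-/- 2 stood apart, with a TMM scaling factor of 0.884 against 1.01 to 1.05 in the other 5 libraries and a mean correlation across genes of 0.972 to its own group, against 0.979 to 0.994. Genes are not independent replicates, so the correlations only describe the libraries. All 10 endothelial markers were detected. Their summed level was 12006, 13839 and 12010 CPM in the libraries labelled GLUT1EC-/- and 13640, 13080 and 13500 CPM in WT. Without Flt1, the most abundant of them, the sum was 8614, 10322 and 9012 CPM against 8980, 8741 and 9424 CPM in WT. In such bulk samples, fewer cells of a type and less RNA per cell cannot be told apart. By the level of Xist and Ddx3y, GLUT1EC-/- 3 and WT 3 came from males and the other libraries from females.

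None of the 10 transporter genes differed between genotypes past an adjusted p of 0.05 over all 14838 genes tested (edgeR quasi-likelihood test), where 1.31% of the genes tested passed. Of the 10, 2 had an unadjusted p under 0.05, Abcc1 and Slco2a1, against 14.5% of the genes tested. DESeq2, which called 5.92% of the genes tested, called 1 of the 10, Abcc1, and limma-voom, which called 0.977%, called none. By fitted value 3 lay above WT and 7 below it, with a median log2 fold change of -0.050, beside 0.014 over all genes tested. For 4 genes, Abcb1a, Abcg2, Abcc4 and Slco1a4, the fold change had a 95% interval that held no 1.5-fold difference in either direction. The intervals of the other 6 genes held a difference of that size, and those of Abcc1 and Slco2a1 lay wholly above a fold of 1. The groups did not overlap for 2 genes, Abcc1 (higher) and Slc22a8 (lower), beside 22.9% of all genes tested.

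**Figure D1:**
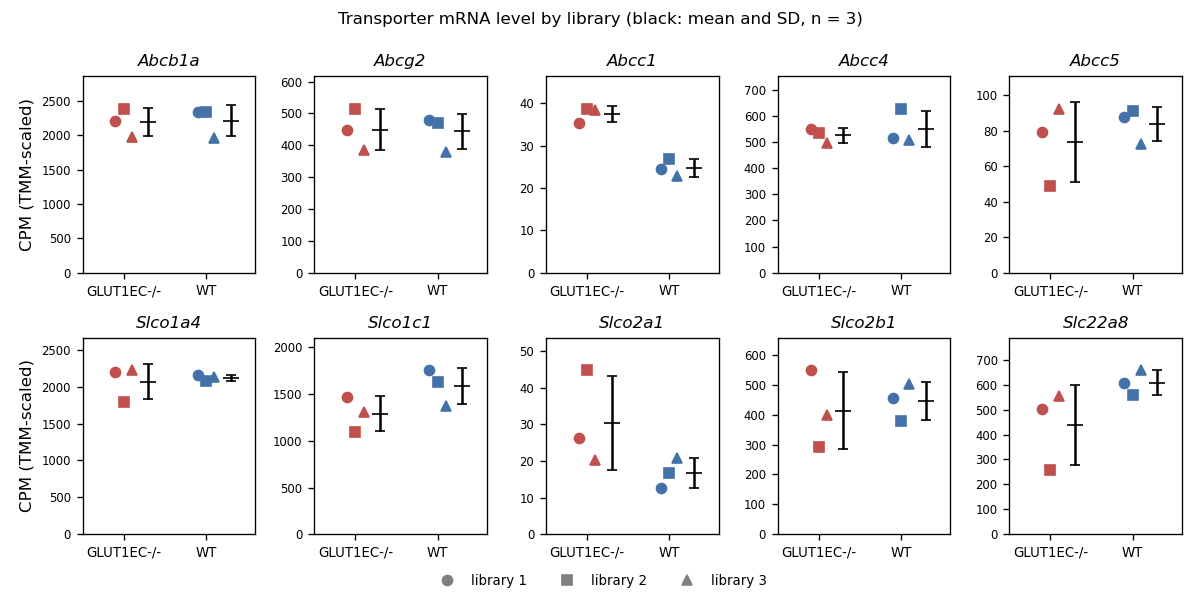
Level of each of the 10 transporter genes in CPM (vertical axis, linear from 0) in the 3 libraries labelled GLUT1EC-/- and the 3 WT libraries. Each symbol shape is a library number, and the black mark gives the mean and SD over 3 libraries. The groups do not overlap for Abcc1 and Slc22a8, though for Slc22a8 GLUT1EC-/- 3 and WT 2 nearly touch, and GLUT1EC-/- 2 (square) is the lowest of 6 for 5 genes and the highest for 4.

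The genes lie on 7 chromosomes, and only some share a chromosome. In GRCm38, Slco1c1 (chr6:141524368-141570177, plus strand) and Slco1a4 (chr6:141805440-141856199, minus strand) belong to the Slco cluster of chromosome 6, and Abcg2 lies elsewhere on that chromosome (chr6:58584523-58695676). Abcb1a (chr5:8660077-8748575) is followed on the same strand by its paralogue Abcb1b (chr5:8798147-8866315). Abcc1 (chr16:14361558-14475737) and Abcc5 (chr16:20331303-20426394) share chromosome 16. Slc22a8 lies at chr19:8591254-8611835, Slco2a1 at chr9:102988712-103096002, Slco2b1 at chr7:99657804-99711340 and Abcc4 at chr14:118482692-118706219. No exon of the 10 overlaps an exon of another coding gene on either strand. Exons of Abcb1a, Slco2a1 and Slco2b1 do overlap annotated noncoding genes on the other strand, and the strand setting of the counting is not given in the sources used here. Of the 100-base windows of the longest Abcb1a transcript, the length of the reads, 7.72% occur unchanged in transcripts of Abcb1b or Abcb4, and 1.1% of those of Slco1a4 occur in Slco1a1 or Slco1a5. The other 8 genes share none.

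Start regions are shown for Slco1a4, Slco1c1, Slc22a8 and Slco2b1, the 4 uptake carriers that were lowest of the 6 libraries in GLUT1EC-/- 2, and for Abcc4, a pump that was not. Each is the RefSeq (GRCm38.p6) sequence from 250 bases before to 50 after the annotated start, written 5′ to 3′ on the strand of the gene, with each CpG in capitals. RefSeq gave such a region for 9 of the 10 genes, and for Slco2b1 and Abcc4 the first of several annotated starts is shown.
Slco1a4, chr6:141856171-141856470, minus strand: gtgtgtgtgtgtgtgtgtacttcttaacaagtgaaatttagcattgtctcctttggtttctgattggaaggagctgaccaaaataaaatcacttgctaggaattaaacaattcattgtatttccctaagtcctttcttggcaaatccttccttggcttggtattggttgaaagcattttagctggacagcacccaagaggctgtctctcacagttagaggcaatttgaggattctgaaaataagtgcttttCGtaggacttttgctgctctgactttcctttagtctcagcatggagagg
Slco1c1, chr6:141524104-141524403, plus strand: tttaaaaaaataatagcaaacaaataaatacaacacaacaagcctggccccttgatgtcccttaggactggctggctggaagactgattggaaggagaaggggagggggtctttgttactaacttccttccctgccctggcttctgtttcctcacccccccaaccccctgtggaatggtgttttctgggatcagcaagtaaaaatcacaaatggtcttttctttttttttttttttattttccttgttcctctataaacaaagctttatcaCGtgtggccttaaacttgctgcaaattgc
Slc22a8, chr19:8592932-8593231, plus strand: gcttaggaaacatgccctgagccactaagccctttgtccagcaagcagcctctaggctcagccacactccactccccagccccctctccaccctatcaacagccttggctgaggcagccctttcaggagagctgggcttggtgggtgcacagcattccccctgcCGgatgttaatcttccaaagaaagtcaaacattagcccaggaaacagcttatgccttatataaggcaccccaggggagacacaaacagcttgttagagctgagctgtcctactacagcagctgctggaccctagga
Slco2b1, chr7:99711291-99711590, minus strand: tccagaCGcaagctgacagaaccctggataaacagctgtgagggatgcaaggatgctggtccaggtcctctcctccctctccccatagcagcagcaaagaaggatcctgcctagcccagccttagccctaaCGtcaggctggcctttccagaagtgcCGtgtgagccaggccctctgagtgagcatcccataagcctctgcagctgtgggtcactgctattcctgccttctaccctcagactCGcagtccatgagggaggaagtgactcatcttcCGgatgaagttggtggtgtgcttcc
Abcc4, chr14:118706170-118706469, minus strand: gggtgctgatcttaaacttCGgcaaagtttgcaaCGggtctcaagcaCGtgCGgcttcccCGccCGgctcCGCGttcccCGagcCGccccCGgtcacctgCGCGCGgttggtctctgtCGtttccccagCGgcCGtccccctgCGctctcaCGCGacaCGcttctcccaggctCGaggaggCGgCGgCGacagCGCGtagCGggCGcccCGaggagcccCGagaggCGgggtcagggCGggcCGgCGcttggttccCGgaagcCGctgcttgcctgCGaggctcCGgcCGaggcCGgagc
Slco1a4, Slco1c1 and Slc22a8 have 1 CpG each in these 300 bases, Slco2b1 has 5 and Abcc4 has 41. The count depends on the start chosen and is low in some pumps too. Abcb1a, the most abundant pump and highest in GLUT1EC-/- 2, has 2, and Slco2a1, also highest there, has 18. The RefSeq region of Abcb1a, chr5:8566841-8567140, lies upstream of the gene span given above, outside it. Abcc5, a pump that was lowest in GLUT1EC-/- 2, has 24. The second start of Abcc4 has 6, the other starts of Slco2b1 have 2 and 4, and the 3 starts of Abcg2 have 3, 10 and 28. Over 32544 regions of the same length the median is 7, with at most 1 CpG in 14% and at least 41 in 3.49%. Slco1c1 holds TATAAA from base 3 after its start and a CCAAT match on the opposite strand from base -164, and Slco1a4 holds CCAAT matches on the opposite strand from bases -188 and -89. TATAAA is found in 13.6% and CCAAT in 37.4% of all regions on either strand. Slc22a8 and the start of Slco2b1 shown matched none of the motifs searched, which were the TATA box (TATAAA), the CCAAT box (CCAAT), the GC box (GGGCGG), the core of the xenobiotic response element (GCGTG), the antioxidant response element (TGACNNNGC) and a TCF/LEF element (CTTTGAT), each on both strands. Abcc4 holds GGGCGG 3 times (found in 35.9% of regions), GCGTG 2 times (32.6%) and TGACNNNGC 1 time (12.4%), with the last next to the GGGCGG at base -16 and no overlap. Only the letters given for each motif were searched, with N as any base, so other forms of these elements were not counted. A match is a description of letters only.

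Levels can be compared between genes only per length, and were taken as CPM per kilobase of exon. Abcb1a, the drug efflux pump P-glycoprotein, averaged 400.0 ± 37.1 in the libraries labelled GLUT1EC-/- and 403.8 ± 40.4 in WT (CPM per kilobase, SD, n = 3 each). Slco1a4, a carrier of bile acids and steroid conjugates, followed with 322 ± 37.6 and 331 ± 6.16, and Slco1c1, the thyroxine carrier, with 249 ± 36.6 and 306 ± 36.9. These 3 genes formed the top of the order. Slc22a8, which exchanges organic anions for dicarboxylates, stood at 112 ± 40.6 in the libraries labelled GLUT1EC-/- and 156 ± 12.4 in WT. Abcc4 was at 82.2 ± 4.37 and 86.0 ± 10.5, Slco2b1 at 69.3 ± 21.5 and 74.8 ± 10.6, and Abcg2 at 55.1 ± 7.92 and 54.4 ± 6.76. Abcc5 (6.88 ± 2.08 and 7.83 ± 0.918), Abcc1 (2.48 ± 0.128 and 1.64 ± 0.136) and Slco2a1 (2.25 ± 0.942 and 1.23 ± 0.303) lay far below the rest.

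Neighbours in that order differed beyond their spread over the 6 libraries at 4 steps. The ranges did not overlap between Abcb1a and Slco1a4, Slco1c1 and Slc22a8, Abcg2 and Abcc5, or Abcc5 and Abcc1. They overlapped at the other 5 steps, and the lower gene of the pair was the higher one in at least 1 library at each of them. With the longest transcript as length, 5 of the 10 genes kept their rank, and Abcb1a came behind Slco1a4 and Slco1c1, so the order of the top genes depends on the length used. Abcb1a made up 73.1 ± 0.658% of the summed length-scaled level of the 5 pumps in the libraries labelled GLUT1EC-/- and 72.9 ± 1.06% in WT. Summed over the 5 pumps the level was 554, 589 and 497 CPM per kilobase in the libraries labelled GLUT1EC-/- and 576, 594 and 491 in WT, with overlapping groups. Summed over the 5 Slco and Slc22a8 carriers it was 847, 608 and 809 against 906, 846 and 852, again overlapping, with GLUT1EC-/- 2 lowest.

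**Figure D2:**
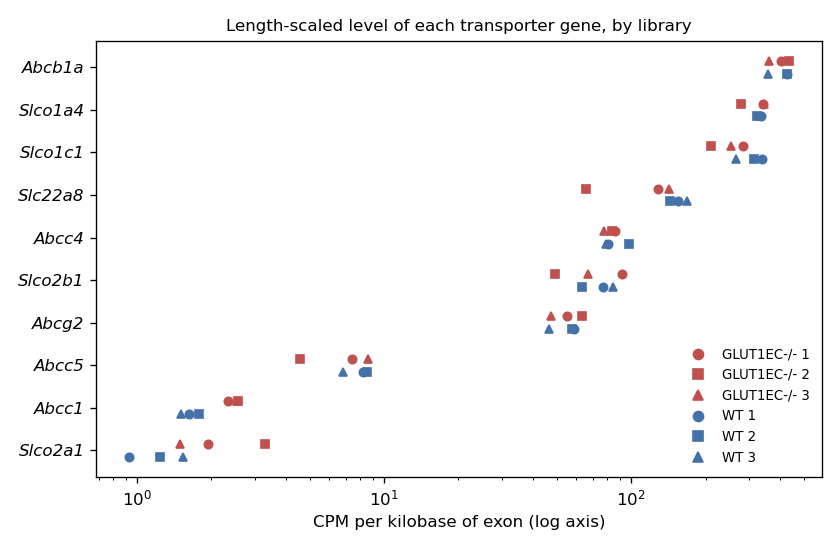
Length-scaled level of each gene in CPM per kilobase of exon (horizontal log axis), 1 symbol per library, with the libraries labelled GLUT1EC-/- drawn above the WT libraries of the same gene. Levels range from 0.930 for Slco2a1 in WT 1 to 435 for Abcb1a in GLUT1EC-/- 2.

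Among the pumps, the main drug efflux genes did not differ between genotypes by more than the spread between libraries. Abcb1a had 2210, 2386 and 1980 CPM in the libraries labelled GLUT1EC-/- 1 to 3 and 2337, 2345 and 1957 CPM in WT 1 to 3. The groups interleave, with the male library lowest in each, and the fold of 0.991 had a 95% interval of 0.785 to 1.25 (log2 fold change -0.014, edgeR adjusted p = 0.971). Abcg2, the breast cancer resistance protein, which shares many substrates with P-glycoprotein, had 448, 514 and 385 CPM against 479, 471 and 380 CPM in WT. Its fold was 1.01, with an interval of 0.783 to 1.31 (edgeR adjusted p = 0.964), and the male library was again the lowest of each group. The length-scaled ratio of Abcb1a to Abcg2 was 7.30 ± 0.374 in the libraries labelled GLUT1EC-/- and 7.44 ± 0.206 in WT. Abcc4, the pump of cyclic nucleotides and prostaglandins called MRP4, had 548, 534 and 494 CPM against 514, 627 and 507 CPM in WT, and WT 2 was the highest of the 6. Its fold of 0.956 had an interval of 0.765 to 1.20 (edgeR adjusted p = 0.860).

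Abcc1, the pump MRP1 for glutathione conjugates and leukotriene C4, was higher by value in every library labelled GLUT1EC-/-. It had 35.2, 38.7 and 38.4 CPM there, from 1295 to 1419 counts, and 24.5, 26.9 and 22.8 CPM in WT, from 791 to 926 counts. The groups do not overlap, and the lowest library labelled GLUT1EC-/- lies above the highest WT library. The log2 fold change was 0.60 (SE 0.13, fold 1.51, interval 1.23 to 1.86), with an unadjusted p of 0.00156 and an edgeR adjusted p of 0.0758, which misses the threshold. Without GLUT1EC-/- 2 it was 0.57 and passed (edgeR adjusted p = 0.0239), in a fit where 5.73% of the genes tested passed, and it passed with DESeq2 (adjusted p = 0.00281), which called 5.92%. Over the 16 alternatives its adjusted p ran from 0.00281 to 0.386 and its log2 fold change from 0.54 to 0.66. As a difference of mean log2 CPM it was 0.45 within the animals numbered in the 200s (GLUT1EC-/- 1, WT 1 and WT 2). Within the 500s (GLUT1EC-/- 2, GLUT1EC-/- 3 and WT 3) it was 0.74. Each series thus has 1 library in 1 of the groups. Summed markers of some cell types outside the endothelium were also higher in the libraries labelled GLUT1EC-/-. The summed level of 8 fibroblast markers was 165 to 389 CPM in the libraries labelled GLUT1EC-/- and 95.3 to 113 CPM in WT, that of 8 astrocyte markers 190 to 234 CPM and 125 to 159 CPM, and that of 15 microglia markers 823 to 1848 CPM and 562 to 663 CPM. Of these lists 1 of 8, 1 of 8 and 3 of 15 genes rose, none fell and no marker was at 0. Their part in the level of Abcc1 was not tested.

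Abcc5, the cyclic nucleotide pump MRP5, had 79.4, 48.9 and 92.2 CPM in the libraries labelled GLUT1EC-/- and 87.5, 91.0 and 72.5 CPM in WT. GLUT1EC-/- 2 held the lowest value and GLUT1EC-/- 3 the highest. The log2 fold change was -0.19 (interval -0.71 to 0.34, edgeR adjusted p = 0.739), and 0.030 without GLUT1EC-/- 2.

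Slco1a4 had 2196, 1790 and 2219 CPM in the libraries labelled GLUT1EC-/- and 2153, 2077 and 2135 CPM in WT. The coefficient of variation was 11.7% in the libraries labelled GLUT1EC-/-, of which number 2 was low and the other 2 lay above all WT libraries, and 1.86% in WT. The fold was 0.975 (interval 0.779 to 1.22, edgeR adjusted p = 0.921). Slco1c1 had 1468, 1090 and 1310 CPM against 1752, 1628 and 1377 CPM in WT. GLUT1EC-/- 1 lies above WT 3, so the groups overlap, and the log2 fold change was -0.30 (SE 0.17, interval -0.68 to 0.080, edgeR adjusted p = 0.459). It kept its sign under all 16 alternatives, from -0.40 to -0.20, and did not pass in any. The length-scaled ratio of Slco1c1 to Slco1a4, in the same cluster, was 0.827, 0.753 and 0.730 in the libraries labelled GLUT1EC-/-. In WT it was 1.01, 0.969 and 0.797.

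Slc22a8, which encodes the organic anion transporter OAT3, had the lowest fitted log2 fold change of the 10. It had 501, 258 and 556 CPM in the libraries labelled GLUT1EC-/- and 608, 560 and 657 CPM in WT. The groups do not overlap, but GLUT1EC-/- 3 and WT 2 lie close together, and GLUT1EC-/- 2 was at 48.7% of the mean of the other 2 libraries of its group. The log2 fold change was -0.47 (SE 0.26, interval -1.08 to 0.13, edgeR adjusted p = 0.462), and -0.21 without GLUT1EC-/- 2 (edgeR adjusted p = 0.390). Slc22a8 is also transcribed in the choroid plexus. The summed level of 9 choroid plexus markers was 5525, 2971 and 4941 CPM in the libraries labelled GLUT1EC-/- and 3695, 4288 and 6500 CPM in WT, with 0 of 9 called and none at 0. The summed level of 7 measured capillary endothelial markers was 5455, 4024 and 6201 CPM against 7250, 6389 and 6051 CPM in WT, with 0 of 7 called. Without Spock2, the most abundant of the 7, it was 2643, 1765 and 2760 CPM against 2697, 2571 and 2168 CPM in WT. The groups overlapped with and without Spock2. Ttr made up most of the choroid plexus sum in every library. Without Ttr that sum was 502, 193 and 525 CPM in the libraries labelled GLUT1EC-/- and 335, 374 and 443 CPM in WT. GLUT1EC-/- 1 and 3 then lay above every WT library, and for Slc22a8 they lay below every WT library. GLUT1EC-/- 2 was lowest for Slc22a8, for the capillary list and for the choroid plexus list with or without Ttr. The part of these lists in the level of Slc22a8 was not tested.

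Slco2b1, a carrier of steroid sulphates, had 548, 293 and 399 CPM in the libraries labelled GLUT1EC-/- and 457, 378 and 502 CPM in WT. GLUT1EC-/- 1 was the highest and GLUT1EC-/- 2 the lowest of the 6. The log2 fold change was -0.11 (interval -0.64 to 0.42, edgeR adjusted p = 0.856). Within the 200s the difference of mean log2 CPM was 0.40 and within the 500s -0.55, opposite in sign. Each of these has 1 library in 1 of the groups. The log2 fold change was 0.082 in the fit without GLUT1EC-/- 2.

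Slco2a1, the prostaglandin transporter that clears prostaglandin E2 from the extracellular space, had the highest fitted fold change of the 10. It had 26.3, 44.7 and 20.2 CPM in the libraries labelled GLUT1EC-/- and 12.6, 16.8 and 20.8 CPM in WT. GLUT1EC-/- 3 lies below WT 3, so the groups overlap, and GLUT1EC-/- 2 was at 192% of the mean of the other 2. The log2 fold change was 0.86 (SE 0.31, interval 0.16 to 1.57, unadjusted p = 0.0224, edgeR adjusted p = 0.246), and 0.47 without GLUT1EC-/- 2 (edgeR adjusted p = 0.251). It was 1.21 between females and -0.041 between the male libraries, 1 in each group, as differences of mean log2 CPM, and the difference between the sexes was not tested. The gene has the widest range of the 10 over the 6 libraries, 1.79 on the log2 scale. Among 9246 genes averaging 10 CPM or more, those with the nearest centred log2 profile were Il1r1, Clint1 and Nptxr, at root mean square distances of 0.10, 0.10 and 0.11. Il1r1, the interleukin-1 receptor, had 451, 739 and 411 CPM in the libraries labelled GLUT1EC-/- and 251, 301 and 372 CPM in WT. It is 1 of 7 measured venous markers, whose summed level was 7944 to 10159 CPM in the libraries labelled GLUT1EC-/- and 4536 to 6613 CPM in WT, with 1 of 7 called, higher, and none at 0. The called gene was Vwf, the von Willebrand factor, at 5621, 5577 and 5555 CPM in the libraries labelled GLUT1EC-/- and 1990, 2587 and 3194 CPM in WT, and the sum of the other 6 markers overlapped, at 2648, 4581 and 2389 CPM in the libraries labelled GLUT1EC-/- and 2547, 3077 and 3418 CPM in WT. By fitted log2 fold change Vcam1 (-0.54) and Slc38a5 (-0.55) lay below WT, with edgeR adjusted p-values of 0.293 and 0.606. Their part in the level of Slco2a1 was not tested.

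**Figure D3:**
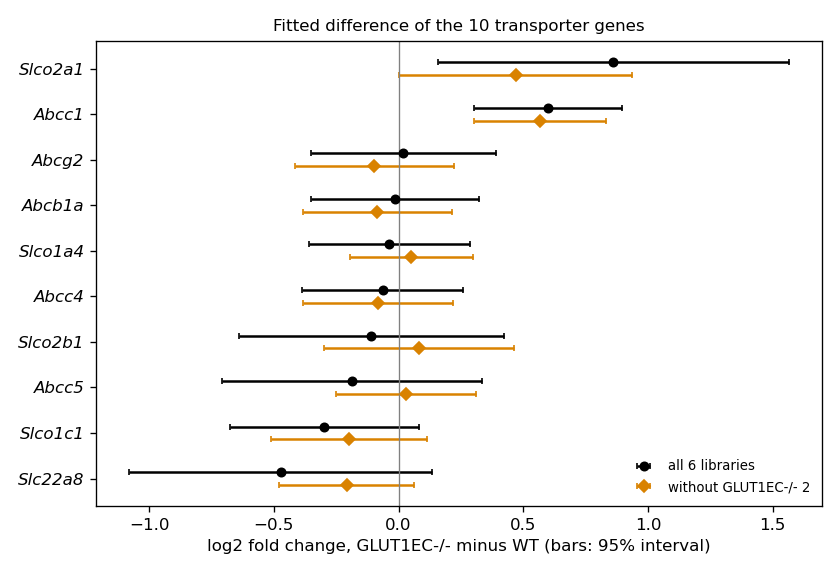
Fitted log2 fold change, GLUT1EC-/- minus WT (horizontal axis), with 95% intervals for each of the 10 genes, from all 6 libraries (black circles) and without GLUT1EC-/- 2 (orange diamonds). Abcc1 stays near 0.6 in both fits, while Slco2a1 and Slc22a8 move towards 0.

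GLUT1EC-/- 2 was the lowest of the 6 libraries for 5 of the 10 genes (Abcc5, Slco1a4, Slco1c1, Slco2b1 and Slc22a8) and the highest for 4 (Abcb1a, Abcg2, Abcc1 and Slco2a1). Over all genes tested it was lowest for 34.8% and highest for 33.2%. Thus 4 of the 5 carriers of organic anions were lowest there, and 3 of the 5 pumps highest. The coefficient of variation was larger in the libraries labelled GLUT1EC-/- for 7 of the 10 genes.

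Related carriers outside the 10 gave no call with all 6 libraries in the fit. Of 15 other genes of the ABCB, ABCC and ABCG families 9 could be tested, and none passed (3 with an unadjusted p under 0.05). The most abundant were Abcc6, at 80.9 ± 5.84 CPM in the libraries labelled GLUT1EC-/- and 92.9 ± 19.1 CPM in WT (edgeR adjusted p = 0.624), and Abcg1, a lipid exporter, at 25.5 ± 7.68 and 25.6 ± 1.98 CPM (edgeR adjusted p = 0.992). Abcb1b, the second P-glycoprotein gene of the mouse, was chosen after its values were seen. It had 24.0, 18.8 and 18.7 CPM in the libraries labelled GLUT1EC-/- and 8.32, 11.8 and 11.0 CPM in WT, with groups that do not overlap, a log2 fold change of 0.98 (SE 0.19, interval 0.54 to 1.43) and an edgeR adjusted p of 0.0550. Without GLUT1EC-/- 2, where 5.73% of all genes tested passed, 2 of the 9 did. They were Abcb1b (edgeR adjusted p = 0.0111) and Abcc3, the pump MRP3 (fold 1.99, edgeR adjusted p = 0.0194). With all 6 libraries the log2 fold change of Abcc3 was 0.71 (edgeR adjusted p = 0.393). Per length Abcb1b stood at 0.745%, 0.541% and 0.648% of Abcb1a in the libraries labelled GLUT1EC-/- and at 0.244%, 0.345% and 0.384% in WT. Of the windows of Abcb1b 8.72% are shared with Abcb1a. How such reads were counted is not given in the sources used here, and their part in the count of Abcb1b was not tested.

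Of 8 other Slco genes 5 were tested and none passed. Slco3a1 was at 23.4 ± 3.91 CPM in the libraries labelled GLUT1EC-/- and 24.5 ± 3.60 CPM in WT, and Slco1b2, known as a hepatic uptake carrier, at 1.51 ± 0.791 and 3.18 ± 0.871 CPM (edgeR adjusted p = 0.322). Of 19 other Slc22, Slc47 and Slc29 genes 13 were tested and none passed. Slc22a17 was at 159 ± 44.7 and 165 ± 23.5 CPM, and the carnitine carrier Slc22a5 at 53.1 ± 9.30 and 68.7 ± 8.25 CPM, which gave -0.37 on the log2 scale (edgeR adjusted p = 0.366). No tested gene of these 3 lists reached the length-scaled level of Abcg2, and the highest, Slc22a17, averaged 35.9 CPM per kilobase over the 6 libraries, against 54.7 for Abcg2.

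Genes around the transporters held 5 calls, all of them rises with all 6 libraries in the fit. Over all genes tested in that fit 1.31% passed, 128 of them higher and 66 lower. Of 12 tested regulators of transporter genes, nuclear receptors and xenobiotic sensors, 1 rose, 0 fell and 11 did not pass (median log2 fold change 0.033). The gene was Esr1, the oestrogen receptor alpha, with 22.6, 11.0 and 27.4 CPM in the libraries labelled GLUT1EC-/- and 3.13, 3.80 and 2.56 CPM in WT, a difference of 2.69 on the log2 scale (SE 0.35, edgeR adjusted p = 0.0184). The receptors Nr1i2 (PXR) and Nr1i3 (CAR), which induce efflux pumps in liver, were too low to be tested, at or under 0.120 CPM in every library. Among 10 tested genes of thyroid hormone transport and action, which are partners of Slco1c1, 1 rose and 9 did not pass (median -0.16). Dio2, the deiodinase that activates thyroxine and that is known from astrocytes in brain, had 4.39, 7.86 and 2.44 CPM against 1.02, 0.876 and 0.665 CPM in WT, a difference of 2.52 on the log2 scale (edgeR adjusted p = 0.0467).

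In the prostaglandin pathway, whose products Slco2a1 and Abcc4 carry, 1 of 15 rose, 0 fell and 14 did not pass (median -0.042). Ptgs1, the constitutive cyclooxygenase, averaged 24.9 ± 3.52 CPM in the libraries labelled GLUT1EC-/- and 11.3 ± 1.51 CPM in WT (SD, n = 3 each), a difference of 1.15 on the log2 scale (SE 0.18, edgeR adjusted p = 0.0269). Among 19 tested enzymes of conjugation and glutathione metabolism, which make substrates of the MRP pumps, 2 rose, 0 fell and 17 did not pass (median 0.18). Cyp1b1, a cytochrome P450 of steroids and aromatic compounds, had 19.1, 20.3 and 18.3 CPM against 5.48, 8.71 and 6.55 CPM in WT, a difference of 1.48 on the log2 scale (edgeR adjusted p = 0.0206). Sult1a1, a phenol sulphotransferase, had 103, 87.8 and 124 CPM against 29.5, 55.2 and 37.7 CPM in WT, a difference of 1.37 on the log2 scale (edgeR adjusted p = 0.0425). The groups do not overlap for any of the 5 genes. All 5 calls were lost when WT 1, WT 2, WT 3 or GLUT1EC-/- 1 was left out. They were also lost with the animal number series as a term. In the fit without GLUT1EC-/- 2, 5.73% of all genes tested passed, 530 of them higher and 332 lower. There 12 of 83 tested genes of the 7 related lists passed, 10 higher and 2 lower. The lower ones were Ephx1, the microsomal epoxide hydrolase (-0.77, edgeR adjusted p = 0.00708), and Nr3c1, the glucocorticoid receptor (-0.57, edgeR adjusted p = 0.0409), both chosen after their values were seen. With all 6 libraries they were at -1.02 and -0.60 on the log2 scale and did not pass (edgeR adjusted p = 0.109 and 0.0956). The fibroblast, astrocyte and microglia sums given above did not overlap between genotypes, with every WT library at the lower end. Their part in the levels of the 5 called genes, Ephx1 and Nr3c1 was not tested.

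**Figure D4:**
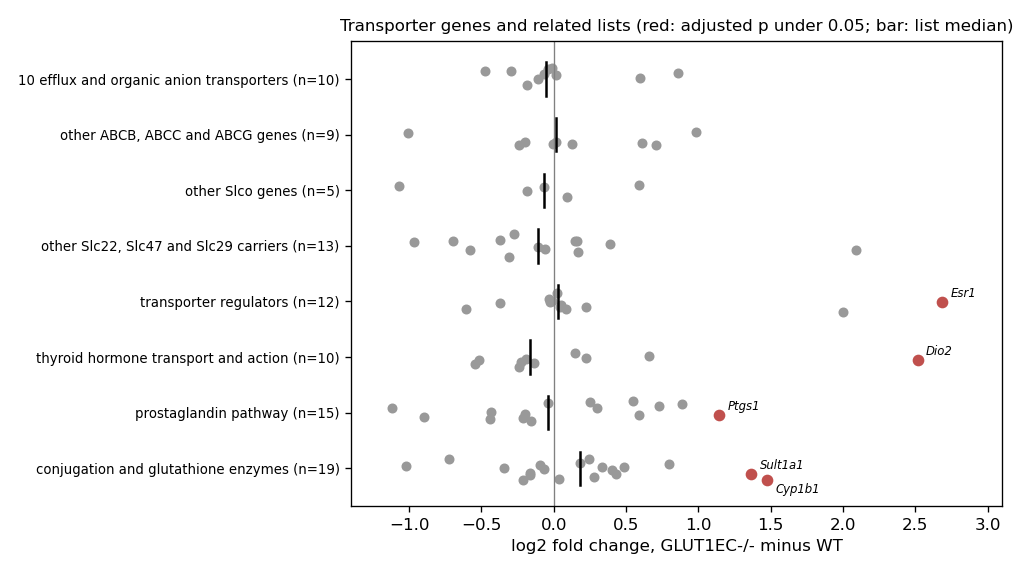
Log2 fold change, GLUT1EC-/- minus WT, of every tested gene in the 10 transporters and in 7 related lists (1 point per gene, vertical jitter only), with the list median as a bar. Red points passed an adjusted p of 0.05, and none of the 10 transporters or the other carriers did.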

How the data were processed

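The authors deposited raw counts per gene symbol, 1 file per library, with no row that lacks a gene name. Reads of 100 bases, single-end, came from stranded TruSeq mRNA libraries, per the labels' protocols. They were aligned with STAR to GRCm38 and counted with featureCounts, per the submitters' processing notes, and versions, annotation, strand and multi-mapping settings are not given in the sources used here.

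The 6 libraries were grouped by the genotype label. All genes were fitted together with edgeR 4.0.16 (R 4.3.3): TMM scaling, filterByExpr (minimum count 10, minimum total 15), robust quasi-likelihood F test, genotype as the only term, Benjamini-Hochberg adjustment over 14838 genes and a threshold of 0.05. SEs were derived from the F statistic of each gene, and intervals are at 95%. Within-series and within-sex differences used log2(CPM + 0.5). Alternatives were other scalings and filters, DESeq2 1.42.0, limma-voom (limma 3.58.1), non-robust dispersion, number series or sex as a term, and each library left out. The tests were tried on simulated data. Lengths, positions and transcripts come from GENCODE M21 (GRCm38), in which all 10 genes were found. With 3 animals in each group, p-values reflect only the spread between these animals.

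The genes and lists were chosen with earlier results of these data known. Named genes were Slc2a1, the 10 transporters, and from each list up to 4 called genes, or else its 2 most abundant genes, and those of the marker lists are not printed where no result turns on them. For the transporter with the widest range the 3 nearest profiles were added.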

Additional observations from a re-analysis of the deposited data

How the results depend on the processing

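No paired analysis was possible because the labels give each animal a number of its own, shared by no other. Of 160 values, 10 transporters under 16 alternatives, 146 kept their direction and their side of the threshold, and 2, both of Abcc1, passed where it had not. The other 12 changed sign, all of genes with no call. Abcb1a was at 0.037 with the animal number series as a term, 0.018 without WT 1, 0.028 without WT 2 and 0.054 without GLUT1EC-/- 3, within -0.096 to 0.054 with a library left out. Abcg2 was at -0.024 with upper-quartile scaling, -0.040 with library size alone, -0.083 without WT 3 and -0.097 without GLUT1EC-/- 2, within -0.097 to 0.12 with a library left out. Leaving out a library gave -0.12 to 0.039 for Abcc4 (highest without WT 2) and, highest without GLUT1EC-/- 2, -0.38 to 0.030 for Abcc5, -0.091 to 0.051 for Slco1a4 and -0.36 to 0.082 for Slco2b1. The number of transporters called was 0, against 1 with DESeq2, 2 at an unadjusted p of 0.05 and 0 to 1 with a library left out. Over all genes 194 were called, against 879 with DESeq2, 14 with the number series and 113 with sex as a term, and 0, 1 and 5 when WT 1, WT 2 or WT 3 was left out, 32 when GLUT1EC-/- 1 was, and 862 when GLUT1EC-/- 2 was. In the 7 related lists 5 genes were called, against 3 with library size alone, 13 with DESeq2, 0 with the number series and 0 to 12 with a library left out. Of the level order, 5 of 10 ranks held with the longest transcript as length. The causes were not tested. The lowest count of a transporter in a library was 407, for Slco2a1, and the number of animals limits the precision of all 10.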
